A study of Homo sapiens with 6 samples.

Results

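The genes described here are 10 genes of cytosolic DNA sensing and DNA clearance, CGAS, IFI16, AIM2, PYHIN1, STING1, ENPP1, BANF1, TREX1, RNASEH2A and DNASE2, out of 62710 gene rows in the deposited table. They were chosen by name and function and found through their Ensembl IDs, with earlier results of these data known, so their share of changed genes is a description. RNA was sequenced from HT1080, an established human fibrosarcoma cell line, either left untreated (3 libraries) or treated with 20 ng/mL human IFNβ for 24 h (3 libraries). The labels give no vehicle for the untreated cells. They name human IFNβ for these cells, as does the cell culture section of the study, whereas its sequencing methods name mouse IFNβ. The study states in general that its cell experiments used independent biological replicates. Neither the labels nor the sequencing methods say how these libraries were replicated, so the p-values measure the spread between libraries, part of which may be technical. Levels are FPKM, fragment numbers corrected for sequencing depth and the length of each gene, as deposited by the authors. Fold changes are on the log2(FPKM + 0.1) scale, which understates the change of low genes, unless they are called ratios. A differentially expressed gene (DEG) has a limma adjusted p under 0.05 together with a log2 fold change at or beyond 1 in size.

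Each library held between 22848104 and 32915500 fragments, recovered from the steps of its FPKM values, so that 1 fragment on a gene of 1 kb gave between 0.0304 and 0.0438 FPKM. HT1080 cells carry mesenchymal transcripts, and the summed level of 7 mesenchymal markers was between 964 and 1016 FPKM in untreated and between 1004 and 1040 FPKM in IFNβ-treated libraries, with VIM the highest in untreated libraries, SPARC the highest by its mean over treated ones, and THY1 at 6 fragments or fewer. Of 8 leukocyte markers, 7 were under a mean of 0.1 FPKM, and the list summed to between 1.14 and 1.22 FPKM in untreated and between 1.07 and 1.17 FPKM in treated libraries, nearly all of it CSF1R. The defining leukocyte gene PTPRC had 1 fragment over the untreated and 11 over the treated libraries. Of 5 epithelial markers, KRT8 rose from 33.8 ± 1.04 to 72.5 ± 0.604 FPKM (SD, n = 3), KRT18 was at 46.7 ± 0.175 and 64.4 ± 2.40 FPKM, and EPCAM, CDH1 and KRT19 had at most 3 fragments in a library. Of 4 endothelial markers, 1 passed the filter. The list summed to between 0.268 and 0.421 FPKM in untreated and between 0.471 and 0.530 FPKM in treated libraries. CDH5 had 7 fragments over the untreated and 43 over the treated libraries, and VWF had 9 and 30. PECAM1 and KDR overlapped between the groups. In bulk RNA, a different share of cells of one type and a different amount of RNA per cell cannot be told apart.

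DNA in the cytosol is read as a sign of infection or damage. The enzyme cGAS, encoded by CGAS, binds double-stranded DNA and makes the cyclic dinucleotide cGAMP, which activates STING, the endoplasmic reticulum adaptor encoded by STING1. STING recruits TBK1, which phosphorylates IRF3, and type I interferon genes are transcribed. The PYHIN proteins pair a pyrin domain with DNA-binding HIN domains. Among them AIM2 builds an inflammasome on cytosolic DNA and IFI16 acts in the nucleus and the cytosol. Other proteins hold this sensing down. TREX1 degrades cytosolic DNA, RNase H2 removes RNA from RNA-DNA hybrids, DNase II digests DNA in lysosomes, ENPP1 hydrolyses extracellular cGAMP, and the barrier-to-autointegration factor made from BANF1 covers DNA and competes with cGAS for it.

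Start-site windows were searched for the letters of 2 sites that interferon-activated factors are known to bind. The RefSeq windows (GRCh38.p14) hold the 250 bases before and 50 bases after a start, and 8 of the 10 genes had one, CGAS and STING1 not. The core of the interferon-stimulated response element, written here as GAAA, any 2 bases and GAAA, was found on either strand in the window of AIM2 and in none of the 7 other genes, against 3.57% of all 35116 windows. The letters of a STAT dimer site, TTC, any 3 bases and GAA, were found in none of the 8 genes, against 7.66% of all windows. The AIM2 window is shown because it carries the only match, on chromosome 1 at chr1:159076717-159077016 of the minus strand, inside the AIM2 gene as GENCODE release 29 draws it. Capitals mark bases 61 to 70, which read GAAA, 2 bases and GAAA on the other strand and begin at position -190 from the start.
AIM2: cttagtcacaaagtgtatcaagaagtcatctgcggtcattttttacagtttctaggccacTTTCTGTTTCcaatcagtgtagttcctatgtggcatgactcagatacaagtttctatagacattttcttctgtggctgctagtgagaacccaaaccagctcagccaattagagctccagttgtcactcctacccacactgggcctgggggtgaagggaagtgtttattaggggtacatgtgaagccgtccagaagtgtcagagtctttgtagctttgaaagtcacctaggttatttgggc

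The windows of IFI16 and PYHIN1, neighbours on chromosome 1, are shown because they resemble each other while their levels differ by orders of magnitude. A local alignment paired 128 bases of the IFI16 window at chr1:159009657-159009956 with 124 bases of the PYHIN1 window at chr1:158931302-158931601, both on the plus strand and inside their genes. It had 103 identities, 20 mismatches and 6 gap bases, an identity of 83.7% without gaps. Capitals mark the aligned stretch, bases 170 to 297 in IFI16 and 154 to 277 in PYHIN1. IFI16 has a second RefSeq window, which held neither motif. A match, or its absence, describes letters only.
IFI16: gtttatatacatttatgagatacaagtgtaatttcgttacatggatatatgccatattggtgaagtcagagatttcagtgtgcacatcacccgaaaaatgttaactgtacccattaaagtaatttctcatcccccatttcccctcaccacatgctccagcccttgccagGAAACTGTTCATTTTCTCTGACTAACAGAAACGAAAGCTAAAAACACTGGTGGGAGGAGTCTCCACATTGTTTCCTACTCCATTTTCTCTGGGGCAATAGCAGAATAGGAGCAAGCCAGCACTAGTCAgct
PYHIN1: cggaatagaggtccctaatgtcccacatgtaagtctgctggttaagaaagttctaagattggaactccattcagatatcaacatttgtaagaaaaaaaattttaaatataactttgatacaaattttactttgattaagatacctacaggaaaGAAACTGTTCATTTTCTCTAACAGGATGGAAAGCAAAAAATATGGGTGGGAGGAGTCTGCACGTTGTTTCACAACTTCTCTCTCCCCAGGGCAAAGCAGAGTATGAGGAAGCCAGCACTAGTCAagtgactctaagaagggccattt

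After IFNβ, AIM2, IFI16, STING1 and DNASE2 were upregulated DEGs, and none of the 10 genes was a downregulated DEG. Of the 10 genes, 8 averaged 0.1 FPKM or more over the 6 libraries and were tested, whereas PYHIN1 and TREX1 did not. The 4 DEGs compare with 4.22% of all 20716 genes tested, 3.49% upregulated and 0.739% downregulated. By adjusted p alone, 5 of the 8 were higher and 1 was lower, against 32.7% of all genes in either direction. The groups did not overlap in 7 of the 8 tested genes, against 46.6% of all genes. The median log2 fold change was 0.69 over the 8 genes and 0.00017 over all genes tested. The 2 that were not tested are described with their fragments below.

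**Figure D1:**
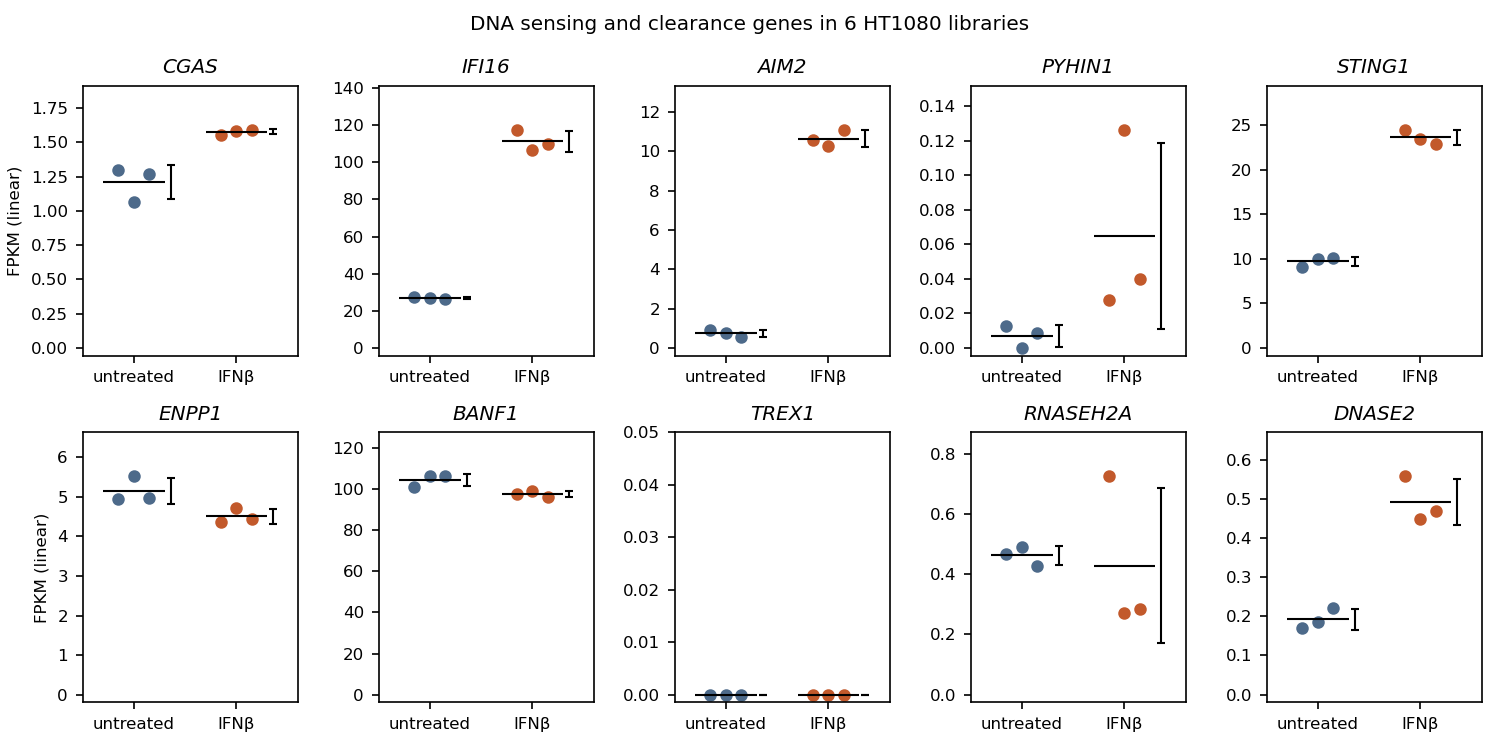
FPKM of the 10 genes in each of the 6 libraries on linear axes that differ between panels, with untreated libraries in blue and IFNβ-treated libraries in orange, the mean as a line and the SD as a bar (n = 3). AIM2 lay between 0.548 and 0.913 FPKM in untreated and between 10.3 and 11.1 FPKM in treated libraries, whereas TREX1 was listed at 0 in all 6.

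AIM2 had the largest change of the tested genes. AIM2 (ENSG00000163568, GRCh38 chr1:159062484-159147096, minus strand), the sensor that assembles an inflammasome on DNA, was at 0.913, 0.776 and 0.548 FPKM in untreated and at 10.6, 10.3 and 11.1 FPKM in IFNβ-treated libraries. Its fragments were 67, 74 and 58 against 1045, 823 and 1030. Every treated library was above every untreated one, and the means of 0.746 ± 0.184 and 10.6 ± 0.426 FPKM (SD, n = 3) had a ratio of 14.3. Its log2 fold change was 3.69 (SE 0.16, limma adjusted p = 1.6e-05), which ranked 72 among all genes tested from the largest rise down. It stayed between 2.74 and 3.90 over 16 alternative settings, and AIM2 was a DEG in each.

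IFI16 was already abundant before treatment and became the highest of the 10 genes after it. IFI16 (ENSG00000163565, chr1:158999968-159055155, plus strand), a PYHIN sensor of viral and damaged DNA, was at 27.3, 26.7 and 26.6 FPKM in untreated and at 117, 106 and 110 FPKM in treated libraries. The groups were far apart, with 3301 to 4631 fragments in untreated and 14072 to 19149 in treated libraries. The ratio of the means, 26.8 ± 0.386 and 111 ± 5.65 FPKM (SD, n = 3), was 4.14. On the log2 scale the fold change was 2.05 (SE 0.04, limma adjusted p = 3.0e-07, rank 272), and it was between 2.01 and 2.08 over the alternatives.

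PYHIN1 was close to the limit of detection. PYHIN1 (ENSG00000163564, chr1:158930796-158977054, plus strand), the interferon-inducible family member also known as IFIX, had 1, 0 and 1 fragments in untreated and 3, 11 and 4 in treated libraries. Its levels were 0.0126, 0 and 0.00872 FPKM against 0.0280, 0.126 and 0.0397 FPKM, and treated library 2 held most of the fragments. The groups did not overlap, but the 2 and 18 fragments in all gave a ratio of 9.08 with an exact 95% counting interval of 2.17 to 80.7, which covers counting error only. PYHIN1 was under the filter. With no filter its log2 fold change was 0.58 and its limma adjusted p was 0.19. MNDA (ENSG00000163563), the PYHIN gene best known from myeloid cells, had no fragment in untreated and 4, 2 and 2 in treated libraries, at least 2.69-fold higher against 3 fragments over the untreated group.

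The 4 PYHIN genes lie in a row on chromosome 1, and their levels followed no common scale. Measured from the IFI16 start, MNDA begins at -169 kb, PYHIN1 begins at -69.2 kb, and AIM2 spans 62.5 to 147 kb. The treated means were 0.0460 FPKM for MNDA, 0.0647 FPKM for PYHIN1, 111 FPKM for IFI16 and 10.6 FPKM for AIM2. By positions in GENCODE release 29, CADM3 was the next protein-coding gene beyond AIM2 with fragments. CADM3 was at 0.117 FPKM in untreated and 0.123 FPKM in treated libraries, and ACKR1 next to it had at most 2 fragments in a library. IDs not in that release, among them PYDC5 described below, have no position here and were left out. RAD1P2, a processed pseudogene inside AIM2, had no fragment in untreated libraries and at most 6 in a treated one. The longest identical stretch between transcripts of PYHIN genes was 39 bases, between IFI16 and PYHIN1, and AIM2 shared 24 with IFI16 and 23 with PYHIN1. Reads were 150 bases at each end. Whether fragments of one PYHIN gene were counted on another was not tested.

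CGAS was low in HT1080 cells and differed little between the groups. CGAS (ENSG00000164430, chr6:73413515-73452276, minus strand), the cGAMP synthase, was at 1.30, 1.07 and 1.27 FPKM in untreated and at 1.56, 1.58 and 1.59 FPKM in treated libraries. All treated libraries were above all untreated ones, with untreated library 2 the lowest. The means were 1.21 ± 0.127 and 1.58 ± 0.0186 FPKM (SD, n = 3), a ratio of 1.30 on 124 to 200 fragments per library. The log2 fold change of 0.36 (SE 0.09, 95% interval 0.13 to 0.59, limma adjusted p = 0.027) was under the threshold of a DEG. The adjusted p was under 0.05 in 11 of 17 fits, the reported one included, and ran from 0.011 to 0.087 over the alternatives. Of its exon bases, 4.33% are shared with DDX43 on the other strand, a gene at 0.353 FPKM or less in every library.

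STING1 rose where CGAS did not pass the fold threshold. STING1 (ENSG00000184584, chr5:139475534-139482935, minus strand), the adaptor that cGAMP activates, was at 9.14, 9.94 and 10.1 FPKM in untreated and at 24.5, 23.5 and 22.9 FPKM in treated libraries. The groups were separate, with means of 9.71 ± 0.500 and 23.6 ± 0.803 FPKM (SD, n = 3) and a ratio of 2.43. Its log2 fold change was 1.27 (SE 0.05, limma adjusted p = 6.5e-06, rank 760), between 1.20 and 1.30 over the alternatives. The difference between the STING1 and CGAS changes was not tested.

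ENPP1 and BANF1, both of which limit the pathway, were slightly lower in treated libraries. ENPP1 (ENSG00000197594, chr6:131808016-131895155, plus strand), the phosphodiesterase that breaks cGAMP down outside the cell, was at 4.95, 5.53 and 4.98 FPKM in untreated and at 4.37, 4.72 and 4.44 FPKM in treated libraries. The groups did not overlap, and the log2 fold change was -0.19 (SE 0.06, 95% interval -0.33 to -0.05, limma adjusted p = 0.050), just above the adjusted p threshold. It was under 0.05 in 4 of 17 fits. Only 0.944% of its exon bases are shared, with ENSG00000237115 on the other strand, which was at 0.0987 FPKM or less. Over the alternatives its adjusted p ran from 0.0020 to 0.15.

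BANF1 (ENSG00000175334, chr11:66002079-66004149, plus strand) was the highest of the 10 genes in untreated cells, at 101, 106 and 106 FPKM. In treated libraries it was at 97.8, 99.1 and 96.1 FPKM, each below every untreated library. The log2 fold change was -0.10 (SE 0.03, limma adjusted p = 0.030), under the fold threshold, and the adjusted p was under 0.05 in 9 of 17 fits and ran from 0.0064 to 0.13 over the alternatives. EIF1AD, which shares 5.96% of the BANF1 exon bases on the other strand, was between 10.5 and 11.2 FPKM in untreated and between 12.6 and 13.2 FPKM in treated libraries. The 5 BANF1 pseudogenes were at 0.530 FPKM or less, although BANF1P3 shares an identical stretch of 113 bases with BANF1.

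TREX1, the main cytosolic DNA exonuclease, could not be measured in these values. TREX1 (ENSG00000213689, chr3:48465811-48467645, plus strand) was listed at 0 in all 6 libraries. In GENCODE release 29 all of its 1515 exon bases also belong to ATRIP, a DNA damage response gene on the same strand. Such genes were often listed at 0. Of 263 protein-coding genes whose exon bases are all shared with a gene on the same strand, 186 (70.7%) were at 0 in every library, against 1969 of 11070 (17.8%) with no shared exon base. Of 16 genes fully shared only with the other strand, 12 (75.0%) were at 0. A listed 0 therefore gives no level for TREX1.

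ATRIP (ENSG00000164053, chr3:48446710-48467645, plus strand), whose exons hold those of TREX1, was at 6.35, 6.65 and 6.60 FPKM in untreated and at 6.79, 7.17 and 6.98 FPKM in treated libraries. Its groups did not overlap, and its log2 fold change was 0.09 (SE 0.04, 95% interval 0.01 to 0.18, limma adjusted p = 0.092). Over the alternatives it was between 0.07 and 0.11, with adjusted p from 0.055 to 0.22. Fragments of TREX1 and ATRIP cannot be told apart here. SHISA5, the neighbour on the other strand and the highest of 5 genes around TREX1, was at 32.2 ± 0.461 and 48.9 ± 1.08 FPKM (SD, n = 3), a log2 fold change of 0.60 (SE 0.02, limma adjusted p = 9.0e-06), under the fold threshold. None of the 5 genes was a DEG.

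**Figure D2:**
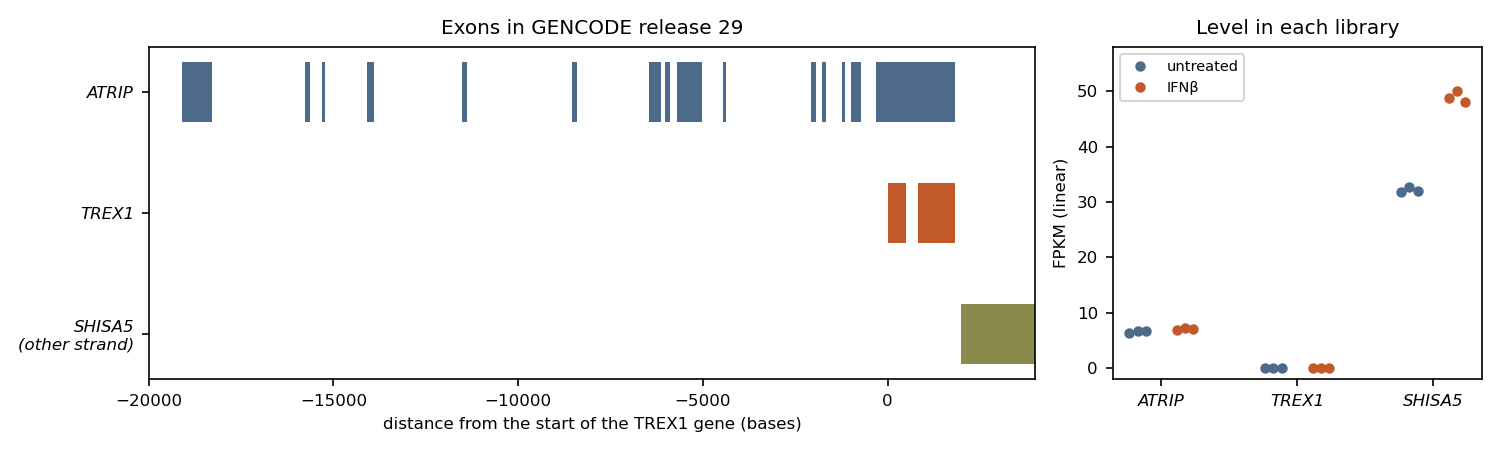
Exons of ATRIP, TREX1 and SHISA5 in GENCODE release 29 by distance from the TREX1 start in bases (left), and FPKM of the 3 genes in each library on a linear axis (right, blue untreated and orange IFNβ-treated). Both TREX1 exons lie inside the last ATRIP exon, and ATRIP was between 6.35 and 7.17 FPKM where TREX1 was listed at 0.

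DNASE2 was low and passed the DEG threshold narrowly. DNASE2 (ENSG00000105612, chr19:12875211-12881468, minus strand), the acid nuclease of lysosomes, was at 0.171, 0.185 and 0.222 FPKM in untreated and at 0.559, 0.449 and 0.469 FPKM in treated libraries. The groups were separate, on 15, 21 and 28 fragments against 66, 43 and 52, and the ratio of the means was 2.56. The log2 fold change was 1.02 (SE 0.18, limma adjusted p = 0.0058). With pseudocount 1 it was 0.32, since the added constant then exceeds the levels, and it was 0.86 after quantile normalization. Without untreated replicate 1, untreated replicate 2 or IFNβ replicate 1 it was 0.964, 0.999 and 0.938, and DNASE2 was then not a DEG. Of its exon bases, 7.58% are shared with ENSG00000267735 on the other strand, which was listed at 0. The adjusted p of DNASE2 stayed under 0.05 in all 16 fits that tested it, from 0.00027 to 0.030 over the alternatives.

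RNASEH2A showed no difference that could be told from its spread. RNASEH2A (ENSG00000104889, chr19:12806556-12815201, plus strand), the catalytic subunit of RNase H2, was at 0.468, 0.492 and 0.429 FPKM in untreated and at 0.727, 0.273 and 0.286 FPKM in treated libraries. The groups overlapped, with treated library 1 above and the other two treated libraries below all untreated ones. These levels rest on 22, 30 and 29 fragments against 46, 14 and 17. The log2 fold change was -0.19 (SE 0.33, 95% interval -0.99 to 0.60, limma adjusted p = 0.71). It was -0.57 without IFNβ replicate 1 (limma adjusted p = 0.060), 0.0070 without IFNβ replicate 2 and -0.02 without IFNβ replicate 3. In GENCODE release 29, 30.8% of its exon bases are shared with THSD8 on the same strand, which was listed at 0, and the part of that overlap in these levels was not tested. The length used for RNASEH2A was 2056 bases against 3645 in that release.

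The other subunits of RNase H2, named here after their values were seen, were no DEGs. RNASEH2C was at 6.13 ± 0.0786 and 5.60 ± 0.347 FPKM (SD, n = 3), a log2 fold change of -0.13 with a limma adjusted p of 0.10, and shares 28.2% of its exon bases with KAT5 on the other strand. RNASEH2B was at 0.575 ± 0.0166 and 0.501 ± 0.0200 FPKM (SD, n = 3), a log2 fold change of -0.17 with a limma adjusted p of 0.35. The FPKM of RNASEH2B was divided by a length of 26222 bases, so that 314 to 513 fragments gave this low level, and the levels of the 3 subunits cannot be read as their proportions in the complex.

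The order of the 10 genes by FPKM changed with treatment. In untreated cells it ran from BANF1 at 105 through IFI16, STING1, ENPP1, CGAS, AIM2, RNASEH2A and DNASE2 at 0.193 FPKM, and neighbours in this order did not overlap down to DNASE2. After IFNβ it ran from IFI16 through BANF1, STING1, AIM2, ENPP1 and CGAS to DNASE2 and RNASEH2A. AIM2 thus stood above ENPP1 and CGAS, both of which had been above it. DNASE2 at 0.492 and RNASEH2A at 0.428 FPKM overlapped in their ranges. Levels depend on the gene length used, which was 3213 bases for AIM2 against 2009 in GENCODE release 29, and 3834 against 2389 for DNASE2.

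Around these genes, lists of 113 partner genes were examined, of which 112 were matched in the table and 100 were tested. Of the 100, 13 were DEGs, all upregulated, against 4.22% of all genes tested. By limma adjusted p under 0.05 alone, 29 were higher and 32 lower, against 15.2% and 17.5% of all genes, which is also the background for the lists below. Their median log2 fold change was -0.0040. ZBP1, ENPP3, CXCL10 and CCL5 averaged 0.1 FPKM or more only through the treated libraries, so the counts over tested genes are descriptions. The DEGs fell in 5 of 11 lists. None was found among the partners that carry the STING signal to IRF3, in the RNA polymerase III route, in cGAMP breakdown and transport, in the SET complex or at the nuclear envelope, nor among the 5 genes around TREX1.

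**Figure D3:**
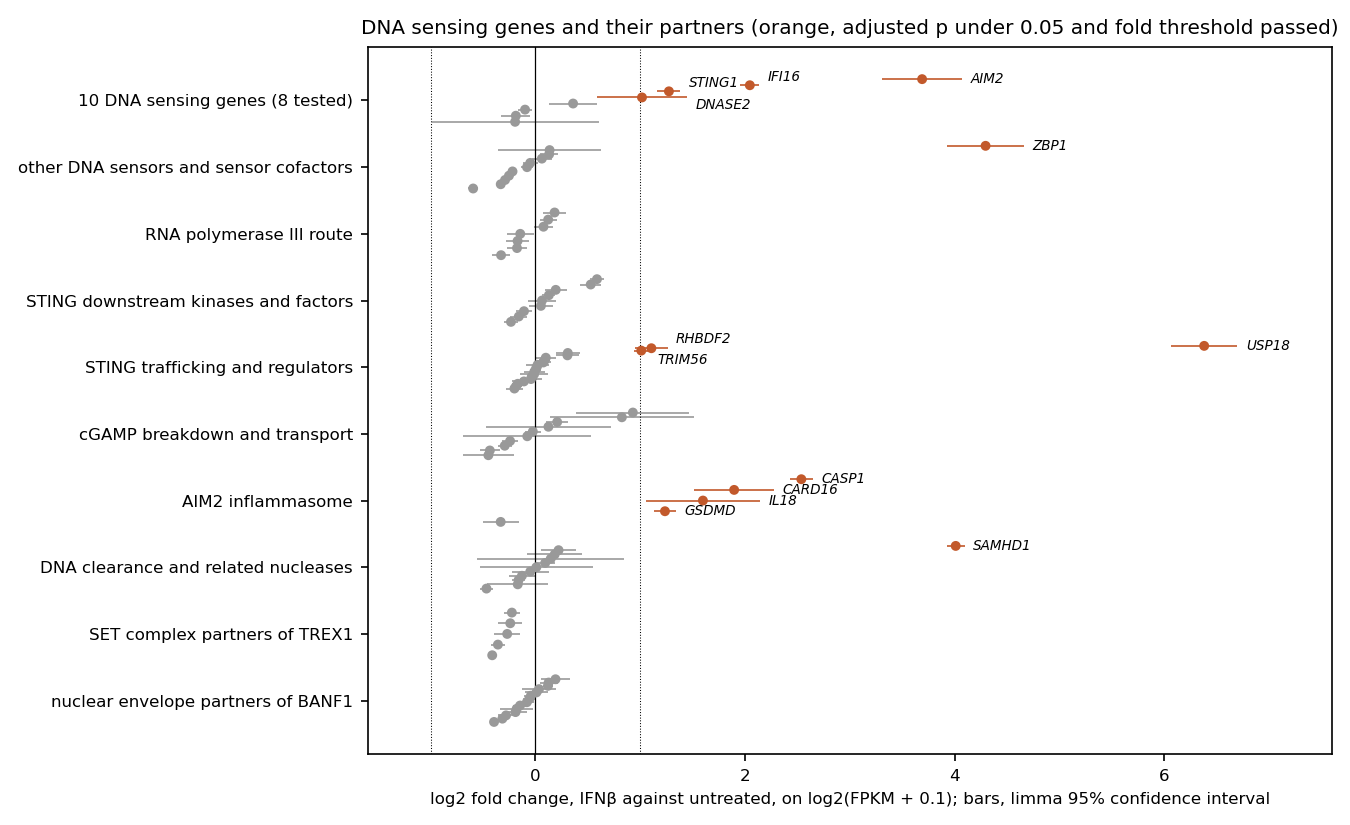
Log2 fold change on log2(FPKM + 0.1), IFNβ-treated against untreated libraries, with limma 95% confidence intervals, of the 8 tested DNA sensing genes and of the genes in 9 partner lists, DEGs in orange and named. The 5 SET complex genes lie between -0.41 and -0.22, whereas USP18 at 6.38 and ZBP1 at 4.30 lie farthest to the right.

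The AIM2 inflammasome list held 4 DEGs among the 5 of its 9 matched genes that were tested. CASP1, the protease that AIM2 activates through an adaptor, was at 1.30, 1.24 and 1.26 FPKM in untreated and at 7.62, 7.89 and 8.04 FPKM in treated libraries, a log2 fold change of 2.54 (SE 0.05, limma adjusted p = 2.4e-07). CARD16, a decoy related to CASP1, was at 0.568 ± 0.137 and 2.35 ± 0.139 FPKM (SD, n = 3), and its log2 fold change was 1.90. CARD16 and CASP1 are close paralogs, so the division of fragments between them is uncertain. GSDMD, the pore protein that caspase-1 cleaves and the highest of the list over all 6 libraries, was at 6.36 ± 0.111 and 15.1 ± 0.807 FPKM (SD, n = 3), and its log2 fold change was 1.24. IL18, a cytokine that caspase-1 matures, was at 0.114 ± 0.0174 and 0.558 ± 0.146 FPKM (SD, n = 3) with a log2 fold change of 1.60, which was 0.48 with pseudocount 1.

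PYCARD, which encodes ASC, the adaptor that links AIM2 to caspase-1, had few counted fragments. It had 1, 1 and 0 fragments in untreated and 4, 2 and 5 in treated libraries, a ratio of 5.55 with an exact 95% counting interval of 1.21 to 51.5 that covers counting error only. Of the PYCARD exon bases, 59.7% are shared with PYCARD-AS1 on the other strand, and the part of this overlap in the low level was not tested. IL1B, the other cytokine of this route and above GSDMD in untreated libraries, was lower, at 11.0, 12.7 and 11.1 FPKM in untreated and 8.68, 9.76 and 9.17 FPKM in treated libraries, with a log2 fold change of -0.33 (SE 0.07, limma adjusted p = 0.013) under the fold threshold. PYDC5, which encodes a pyrin-only protein, had 6, 8 and 18 fragments in untreated and 3, 6 and 1 in treated libraries. CARD18 was listed at 0 and PYDC1 had 1 fragment in 1 treated library. PYCARD, IL1B, PYDC5, CARD18 and PYDC1 were named after their values were seen.

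Among 12 other DNA sensors and cofactors, ZBP1 was the only DEG of the 11 tested. ZBP1, a sensor of Z-form nucleic acids, had no fragment in the untreated libraries and was at 1.75, 1.93 and 1.92 FPKM in the treated ones. It was at least 286-fold higher, with 851 fragments against a floor of 3 fragments over the untreated group, and its fitted log2 fold change of 4.30 (limma adjusted p = 6.6e-06) depends on the pseudocount. XRCC6, the highest of this list, and PRKDC, its partner in the DNA-PK complex, were lower, at 214 ± 0.573 and 180 ± 2.95 FPKM and at 35.0 ± 0.494 and 23.1 ± 0.124 FPKM (SD, n = 3). Their log2 fold changes of -0.25 (limma adjusted p = 0.00013) and -0.59 (limma adjusted p = 3.7e-06) were under the fold threshold. In all, 2 of the 11 genes were higher and 5 lower by adjusted p. PRKDC was named after its values were seen.

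The 9 kinases and factors downstream of STING were all tested, and 4 were higher and 3 lower by adjusted p, with no DEG. IRF3, the factor that turns on IFNB1, was at 8.15 ± 0.115 and 12.3 ± 0.202 FPKM (SD, n = 3), with a log2 fold change of 0.59 (SE 0.03, limma adjusted p = 1.8e-05), and shares 19.3% of its exon bases with BCL2L12 on the other strand. IKBKE, a kinase related to TBK1, was at 6.02 ± 0.228 and 8.73 ± 0.271 FPKM (SD, n = 3), with a log2 fold change of 0.53. TBK1 itself was at 4.28, 4.04 and 4.41 FPKM in untreated and at 4.57, 4.29 and 4.35 FPKM in treated libraries, with overlapping groups, a log2 fold change of 0.05 and a limma adjusted p of 0.47. RELA, the NF-κB subunit that was highest in the list, had a log2 fold change of 0.13 with a limma adjusted p of 0.010. IRF3, IKBKE and TBK1 were named after their values were seen. Of the 7 RNA polymerase III subunits, which transcribe AT-rich DNA into an RNA ligand, 2 were higher and 3 lower, and POLR3G, the highest, went from 15.9 ± 0.695 to 12.7 ± 0.138 FPKM (SD, n = 3), a log2 fold change of -0.33.

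Regulators of STING held 3 DEGs among 19 tested. USP18, an ISG15-specific protease that dampens signalling at the interferon receptor, was at 0.866, 0.560 and 0.653 FPKM in untreated and at 65.8, 65.2 and 64.4 FPKM in treated libraries, a ratio of 94.0 and a log2 fold change of 6.38 (limma adjusted p = 5.2e-07). USP18 has near-identical copies on the same chromosome, so its level is uncertain in so far as fragments were split. RHBDF2, the iRhom2 protein that aids STING trafficking, was at 5.05 ± 0.408 and 11.0 ± 0.425 FPKM (SD, n = 3), with a log2 fold change of 1.11. TRIM56, a ubiquitin ligase of cGAS and STING, was at 6.97 ± 0.0660 and 14.2 ± 0.382 FPKM (SD, n = 3), with a log2 fold change of 1.01. With pseudocount 1 these were 0.99 for RHBDF2 and 0.93 for TRIM56, and neither was a DEG. TRIM56 was also not a DEG after quantile normalization (0.99) or without IFNβ replicate 2 (0.998). SURF4, which returns STING to the endoplasmic reticulum and was the highest of the list, had a log2 fold change of -0.03 with a limma adjusted p of 0.24.

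Partners of ENPP1 in handling cGAMP gave no DEG among 10 tested, with 2 higher and 4 lower by adjusted p. LRRC8A, the shared subunit of volume-regulated channels that pass cGAMP and the highest of the list, had a log2 fold change of -0.02 with a limma adjusted p of 0.61. Its partner LRRC8C was at 5.70 ± 0.176 and 4.19 ± 0.108 FPKM (SD, n = 3), with a log2 fold change of -0.43 (limma adjusted p = 0.00040). SMPDL3B, which can hydrolyse cGAMP, had the largest log2 fold change in the list at 0.93 (limma adjusted p = 0.020) on 10 to 39 fragments per library. LRRC8C and SMPDL3B were named after their values were seen.

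Among 11 tested genes of DNA clearance, SAMHD1 was the only DEG. SAMHD1, which hydrolyses deoxynucleotides, was at 2.59, 2.73 and 2.52 FPKM in untreated and at 44.1, 43.8 and 42.9 FPKM in treated libraries, a ratio of 16.7 and a log2 fold change of 4.01 (SE 0.04, limma adjusted p = 9.0e-09). It shares 10.3% of its exon bases with TLDC2 on the other strand. FEN1, the flap endonuclease highest in the list, was lower, with a log2 fold change of -0.16 (limma adjusted p = 0.0046). The 5 SET complex genes, whose proteins associate with TREX1, were all lower by adjusted p and under the fold threshold, with a median log2 fold change of -0.27. APEX1, the highest of them over all 6 libraries although SET was higher in untreated ones, was at 111 ± 3.54 and 94.9 ± 2.55 FPKM (SD, n = 3). By adjusted p alone, 17.5% of all genes tested were lower.

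Of 14 nuclear envelope partners of BANF1, 3 were higher and 5 lower by adjusted p, with no DEG and a median log2 fold change of -0.07. LMNA, the A-type lamin gene and the highest of the list, was at 114 ± 1.86 and 124 ± 1.91 FPKM (SD, n = 3), with a log2 fold change of 0.12. LMNB1, a B-type lamin gene named after its values were seen, was at 55.4 ± 0.310 and 42.1 ± 0.317 FPKM (SD, n = 3), with a log2 fold change of -0.39 (limma adjusted p = 1.2e-05).

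Of 6 genes that DNA sensing is known to switch on, 4 were DEGs, CXCL10, ISG15, IFIT1 and CCL5, which interferon is also known to induce on its own. IFNB1 and IFNL1 were under the filter. CXCL10, a chemokine, had no fragment in untreated libraries and was at 21.3, 20.8 and 21.8 FPKM in treated ones, at least 714-fold higher against a floor of 3 fragments over the untreated group. ISG15 was at 10.5 ± 0.473 and 1448 ± 30.1 FPKM (SD, n = 3), and IFIT1 was at 0.916 ± 0.0380 and 413 ± 3.30 FPKM (SD, n = 3), with log2 fold changes of 7.09 and 8.67. CCL5 was at 0.0847 ± 0.0435 and 0.738 ± 0.241 FPKM (SD, n = 3), with a log2 fold change of 2.17, or 0.67 with pseudocount 1. IFNB1, the interferon gene at the end of the pathway, had 1 fragment in 1 treated library and none in the 5 others, and IFNL1 had at most 2 fragments in a library. Both interferon genes were named after their values were seen.

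The paired GAAA letters of the response element core were found in the start-site windows of AIM2, CXCL10, ISG15 and IFIT1, 4 of the 9 DEGs of these genes and lists that have a window. Of the 73 partner genes tested that were no DEGs and have a window, 5 held it. CXCL10, ISG15 and IFIT1 came from the list of pathway outputs, genes already known to be induced by interferon. Over all 35116 windows, 3.57% held these letters. These counts are descriptions, since the lists were chosen by function and many genes have no window.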

How the data were processed

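RNA of 6 libraries was sequenced by the authors as read pairs of 2 × 150 bases. The authors enriched mRNA, and the submitters' processing notes name fastp, HISAT2, StringTie and GRCh38. Annotation and strandedness are not given in the sources used here, and 4436 IDs are not in GENCODE release 29. Shared exon bases are those of that release, which may differ from the annotation behind the levels. The deposited values are FPKM per Ensembl gene, normalized by the authors. Fragments were recovered as integers, within 0.001, from a gene's FPKM times the depth of each library for 35302 of 35303 genes above 0. For 16427 genes the exon length in GENCODE release 29 gave these integers. For the others the smallest integers in proportion were taken, so true numbers may be multiples.

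limma 3.58.1 (R 4.3.3; lmFit, eBayes with trend) was fitted to log2(FPKM + 0.1) of 20716 genes averaging 0.1 FPKM or more, with Benjamini-Hochberg adjustment over them. The study's DESeq2 needs counts, so it was not used. With 3 against 3 libraries an exact permutation test cannot go below p = 0.10. On simulated data of 19571 genes, 75.8% of 182 genes changed 4-fold were called (93.2% of 118 averaging 1 FPKM or more), and 16 of 154 calls were false. None of the false calls was on a gene averaging 20 fragments or more per library. Of raised genes 82.3% were called, and of lowered genes 68.6%. These rates rest on an assumed dispersion (spread between libraries beyond counting error) of 0.005. Python 3.11.15 and Biopython 1.88 served the other steps.

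The genes and lists were chosen with earlier results of these data known. Named were all 10 genes, each DEG and the highest gene of a partner list, and genes whose exons overlap one of the 10. Others, among them MNDA, the other neighbours of IFI16, the BANF1 pseudogenes, ENPP3, SET, the single cell type markers and genes overlapping a partner gene, were named after their values were seen. A comparison of PYHIN proteins was not done. Alternatives changed the pseudocount, filter, scaling, trend, replicate block, libraries, fold threshold and model (limma-voom).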

Additional observations from a re-analysis of the deposited data

How the results depend on the processing

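AIM2, IFI16 and STING1 were upregulated DEGs in all 17 fits. Of the 10 genes, 4 were DEGs, between 3 and 4 with a library left out. Over all genes, the 875 DEGs became 304 with pseudocount 1, 425 among the 11996 genes averaging 1 FPKM or more, 6778 with no fold threshold, and between 819 and 851 with a library left out. The 13 DEGs of the partner lists became 61 with no fold threshold and between 12 and 14 with a library left out. The upregulated share of all DEGs was 82.5%, and 73.4% after quantile normalization. The log2 fold change of RNASEH2A was between -0.57 and 0.0070 with a library left out, reversed without IFNβ replicate 2, and the cause was not tested. DNASE2, TRIM56, RHBDF2, IL18 and CCL5 lost their call in the settings given with their values.

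The replicate number as a block gave 829 DEGs over all genes, and 4 of the 10 genes were DEGs in that fit. By adjusted p alone, 5 of the 8 tested genes passed with the block. CGAS (limma adjusted p = 0.061) and BANF1 (limma adjusted p = 0.051) no longer passed, whereas ENPP1 did (limma adjusted p = 0.028). The replicate numbers are not said to pair the libraries. The correlations of deviations between libraries of the same number were 0.014, 0.023 and 0.031, each the highest for its library. Between unlike numbers they ran from -0.029 to 0.0058. Values this small cannot decide whether the libraries were paired.

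PYHIN1, MNDA and PYCARD rest on 11 fragments or fewer in a library and RNASEH2A on 14 to 46. TREX1 cannot be told apart from ATRIP. The part of overlapping annotation in the levels of RNASEH2A, DNASE2 and PYCARD was not tested.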
